A study of Homo sapiens with 16 samples.

Results

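The GADD45, BTG and SERTAD genes are 3 small families tied to growth arrest and stress. Of the 9 genes GADD45A, GADD45B, GADD45G, BTG1, BTG2, BTG3, SERTAD1, SERTAD2 and SERTAD3, chosen by symbol, 8 had a named feature on the array. BTG2 had none in the annotation used and was not analysed here. The 8 genes were covered by 12 of 45220 features and stand among 18334 named genes.

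GADD45 proteins are small acidic nuclear proteins that bind PCNA, the CDK1 and cyclin B1 kinase and the kinase MAP3K4, and GADD45A is a classic p53 target in the response to ionising radiation. BTG proteins share a domain with the TOB proteins and link the CCR4-NOT deadenylase, which shortens mRNA tails, to transcripts and transcription factors. SERTAD proteins are transcriptional co-regulators. SERTAD1 binds CDK4 and works with E2F1 and its DP partners, SERTAD2 is a related co-regulator of E2F activity, and SERTAD3 binds the replication protein RPA2.

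The cells were A549, 1 established human lung adenocarcinoma line, grown in culture. Plates were exposed to carbon ions (C12), particles that deposit energy densely along their track, or to X-rays from a clinical linear accelerator, and sampled 1h or 4h later. Each of the 16 two-colour arrays set an irradiated plate against the unirradiated control plate of the same culture, with 4 arrays in each of the groups C12 1h, C12 4h, X-ray 1h and X-ray 4h. The series lists 16 independent cultures, while its extraction protocol pools RNA of 2 experiments. How these fit together is not given, so p-values measure the spread between the hybridised samples, pooled per gene over the 4 groups. No radiation dose was given in the sources used here, so C12 and X-rays cannot be compared at equal dose. The ratios hold no expression levels, so the epithelial identity of the line was not checked against its markers. A ratio from a whole plate also cannot tell apart a change in all cells from a change in some of them.

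Which plate is the numerator of a deposited ratio cannot be read from the labels. Over all features, C12 arrays with the same labelled dye for the irradiated plate correlated with r from -0.869 to 0.853, and 8 of 12 such pairs lay below -0.3. Among X-ray arrays with the same labelled dye, r ran from -0.363 to 0.31. Values were therefore turned by a rule: replicates 1 and 2 of every group were multiplied by -1, which gives irradiated over control as the likely reading. That rule had been chosen with p53 targets as the positive control, GADD45A and SERTAD1 among them, so the direction of these 2 genes is not a finding and their p-values come after a selection. If the overall sign is the inverse, each rise below is a fall of the same size with the same p, every rank from the top is a rank from the bottom, and each difference between groups changes sign. Changes are given as log2 ratios with standard errors (SE) from 1 limma model over all 16 arrays, and a gene was called at a Benjamini-Hochberg adjusted p under 0.05 over all 18334 genes.

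GADD45A and SERTAD1 rose after X-rays at both times, each on 4 of 4 arrays, and no other paralog passed in any group. At 1h after X-rays 2 of 8 genes rose (0.0491% of all genes passed), and at 4h the same 2 of 8 rose (0.567% of all genes passed). Both had helped to choose the sign rule, so counts that include them come after a selection and are no measure of enrichment. After C12, 0 of 8 passed by limma at 1h (0% of all genes passed) and 0 of 8 at 4h (0.0109%). At an unadjusted p under 0.05 the C12 counts were 0 of 8 at 1h, against 0.158% of all genes, and 1 of 8 at 4h, against 0.24%. That single gene was GADD45A.

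**Figure D1:**
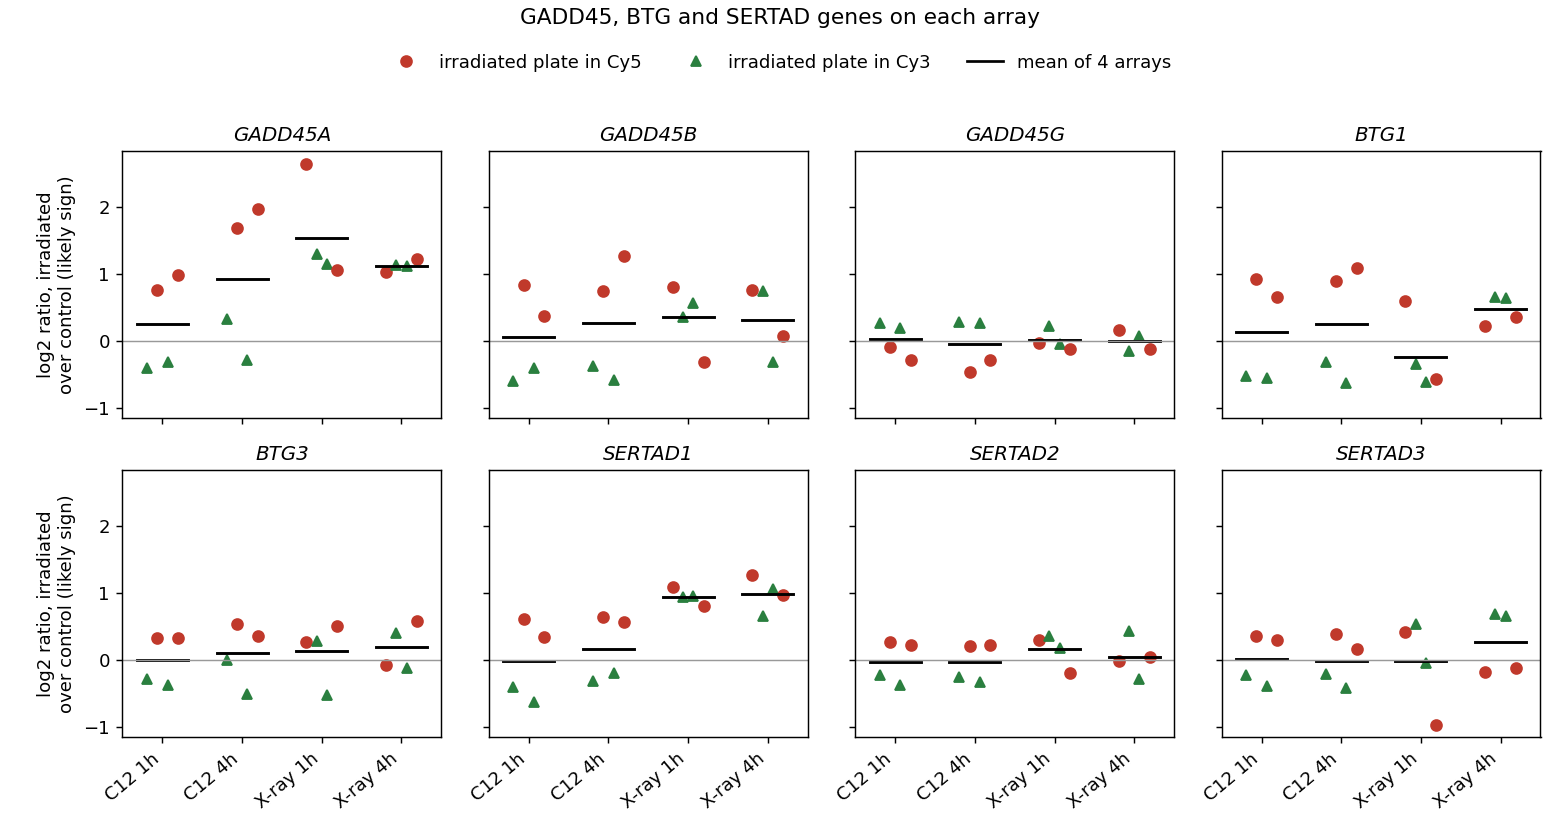
Log2 ratio of irradiated over control plates (likely sign, y axis) for the 8 genes in the 4 groups (x axis), 1 point per array and a line at the mean of 4 arrays. Circles mark arrays with the irradiated plate in Cy5 and triangles those with it in Cy3. SERTAD1 lies between 0.65 and 1.26 on all 8 X-ray arrays, while the C12 arrays of the genes split by dye.

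GADD45A, the founding member of its family, had log2 ratios of 2.64, 1.30, 1.14 and 1.06 on replicates 1 to 4 at 1h after X-rays. Replicate 1 stood far above the other 3 arrays. The estimate was 1.53 ± 0.23 (SE, n = 4), a 2.90-fold rise with a limma adjusted p of 0.00998, and GADD45A ranked at 3 from the top of 18334 genes. At 4h after X-rays the values were 1.02, 1.13, 1.11 and 1.22, which is a narrow range at about the level of the 3 lower arrays at 1h. The estimate was 1.12 ± 0.23, a 2.17-fold rise (limma adjusted p = 0.0361), at rank 9.

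The calls of GADD45A varied with the arrays and the dye term in the fit. With 1 dye coefficient per radiation quality the estimates stayed at 1.53 ± 0.18 and 1.12 ± 0.18, and both passed (limma adjusted p = 0.000316 and 0.00258). At X-ray 1h it did not pass without X-ray 1h replicate 1 (1.30, limma adjusted p = 0.259), 2 (1.45, 0.213) or 3 (1.51, 0.143), nor, with the estimate still at 1.53, without the dye term (0.398) or on the X-ray 1h arrays alone (0.281). At X-ray 4h it did not pass without X-ray 4h replicate 3 (0.96, adjusted p = 0.332) or 4 (1.25, 0.051), C12 1h replicate 1 (0.0527), 2 (0.0531) or 4 (0.0516), or C12 4h replicate 1 (0.0577), nor without the dye term (1.12, 0.443) or with array weights (0.80, 0.376).

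After C12 the GADD45A ratios depended on which plate carried which dye. At 4h they were 0.33, 1.68, -0.29 and 1.97 on replicates 1 to 4. Replicates 2 and 4, with the irradiated plate in Cy5, were both high, with a mean of 1.82, and replicates 1 and 3, in Cy3, had a mean of 0.02. The estimate was 0.92 ± 0.23 (rank 3), which did not pass in the model over all arrays (limma adjusted p = 1). It passed when only the 4 arrays of the group were fitted with their own dye term (0.92 ± 0.09, limma adjusted p = 3.29e-06). In that fit limma draws the SE toward the spread of all genes, so 0.09 is not the spread of GADD45A alone. GADD45A also passed on the 8 C12 arrays (0.0163) and with array weights (0.00082), but not with 1 dye coefficient per quality over all 16 arrays (0.387). At 1h after C12 the values were -0.40, 0.76, -0.32 and 0.98, again split by dye, with an estimate of 0.25 ± 0.23 (adjusted p = 1).

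In order of its estimates, GADD45A stood at 1.53 (X-ray 1h), 1.12 (X-ray 4h), 0.92 (C12 4h) and 0.25 (C12 1h). No difference between neighbours in this order passed the test over all genes. X-ray 4h minus X-ray 1h was -0.42 ± 0.33, C12 4h minus X-ray 4h was -0.20 ± 0.33, and C12 4h minus C12 1h was 0.67 ± 0.33, each with a limma adjusted p of 1. The 95% interval of the last ran from -0.03 to 1.37, and with 1 dye coefficient per quality it ran from 0.13 to 1.21 (0.67 ± 0.26, limma adjusted p = 1).

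The split by labelled dye, in ratios turned by the sign rule, was a general feature of the C12 arrays. Fitted per radiation quality, the dye coefficient of GADD45A was 0.76 for C12 and 0.16 for X-rays, and the median size over all genes was 0.33 and 0.10. The mean of the 13 measured housekeeping genes lay between -0.47 and 0.50 on single arrays. On the C12 arrays and at X-ray 1h it was positive with the irradiated plate in Cy5 and negative in Cy3, with 0.50, -0.43, -0.41 and 0.38 for replicates 1 to 4 at X-ray 1h. At X-ray 4h it was 0.17, 0.20, -0.45 and 0.11, and replicate 2, in Cy3, was the highest. Its part in the results was not tested beyond the dye terms.

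SERTAD1, a nuclear protein that binds CDK4, had a narrow range of values after X-rays. At 1h after X-rays it stood at 1.09, 0.93, 0.95 and 0.80 on replicates 1 to 4. Arrays of both dye orientations had a mean of 0.94. The estimate was 0.94 ± 0.14, a 1.92-fold rise (limma adjusted p = 0.00998), at rank 6 from the top. At 4h it stood at 1.26, 0.65, 1.06 and 0.97, with an estimate of 0.99 ± 0.14, a 1.98-fold rise (adjusted p = 0.00214), at rank 21. The difference between the times, 4h minus 1h, was 0.04 ± 0.20, with a 95% interval from -0.39 to 0.47.

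With 1 dye coefficient per radiation quality SERTAD1 stayed at 0.94 ± 0.10 and 0.99 ± 0.10 at X-ray 1h and 4h and passed at both (limma adjusted p = 0.000198 and 7.15e-05). At X-ray 1h it did not pass without X-ray 1h replicate 1 (0.99, limma adjusted p = 0.0788), 2 (0.85, 0.223) or 3 (0.84, 0.184), without the dye term (0.94, 0.398), on these 4 arrays alone (0.94, 0.261) or with array weights (0.80, 0.0515). At X-ray 4h it did not pass without X-ray 4h replicate 3 (0.86, adjusted p = 0.0562), without the dye term (0.99, 0.0613) or with array weights (0.92, 0.16).

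After C12, SERTAD1 was at -0.40, 0.61, -0.63 and 0.34 at 1h and at -0.32, 0.64, -0.20 and 0.56 at 4h. The values were positive with the irradiated plate in Cy5 and negative with it in Cy3, and at each time all 4 C12 arrays lay below all 4 X-ray arrays. The estimates were -0.02 ± 0.14 and 0.17 ± 0.14, and neither passed (limma adjusted p = 1 for both).

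SERTAD1 and SERTAD3 lie next to each other among protein-coding genes on chromosome 19 of the RefSeq annotation of GRCh38.p14. Their upstream windows are shown because 1 of these neighbouring paralogs rose and the other did not pass. Each holds the 250 bases before the RefSeq gene start in GRCh38.p14, on the minus strand, read in the direction of the gene, with GC boxes (GGGCGG) and CCAAT boxes (CCAAT) on either strand in capitals.
SERTAD1, chr19:40425993-40426242: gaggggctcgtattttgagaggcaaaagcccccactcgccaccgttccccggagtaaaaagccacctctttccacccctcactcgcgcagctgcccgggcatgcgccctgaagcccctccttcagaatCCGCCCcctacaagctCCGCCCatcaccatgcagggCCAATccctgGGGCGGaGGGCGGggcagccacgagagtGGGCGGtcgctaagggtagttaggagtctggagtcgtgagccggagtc
SERTAD3, chr19:40444336-40444585: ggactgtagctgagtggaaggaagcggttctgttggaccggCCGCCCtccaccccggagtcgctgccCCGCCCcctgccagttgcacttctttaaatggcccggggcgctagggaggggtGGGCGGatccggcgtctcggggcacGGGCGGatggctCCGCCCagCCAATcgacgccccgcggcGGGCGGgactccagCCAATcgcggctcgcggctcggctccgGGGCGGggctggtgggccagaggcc
The SERTAD1 window held 5 GC boxes and 1 CCAAT box, and the SERTAD3 window held 7 and 2. Of 27303 RefSeq windows of this length, 42.3% held a GC box and 33% a CCAAT box, so both were common. Neither window held a TATAAA box, found in 11.1% of windows, or a match to the p53 half-site consensus, found in 5.53%. Matches within a window did not overlap. A match is a description only, and no match covers only these 250 bases. All 4 motifs were searched on both strands in the windows of GADD45B, GADD45G, BTG1, BTG2, BTG3, SERTAD1, SERTAD2 and SERTAD3, while GADD45A had no entry and was not searched. The p53 half-site consensus was in 0 of these 8 windows, and TATAAA was in those of GADD45B and BTG1.

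SERTAD3, which binds RPA2, stood at 0.41, 0.54, -0.05 and -0.97 on the X-ray 1h arrays, which scattered on both sides of 0. At X-ray 4h it stood at -0.18, 0.69, 0.66 and -0.12, high on the pair of arrays with the irradiated plate in Cy3. Its estimate was -0.02 ± 0.22 at 1h and 0.26 ± 0.22 at 4h (limma adjusted p = 0.94), and the 95% interval at 4h ran from -0.20 to 0.73. The other close neighbours of SERTAD1, PRX and BLVRB, did not pass either, with estimates of 0.18 and -0.04 at X-ray 4h. SERTAD2 on chromosome 2 was at 0.16 ± 0.14 and 0.04 ± 0.14 after X-rays at 1h and 4h, and its 2 features stood at -0.04 and 0.36 at 1h and at 0.14 and -0.05 at 4h. Neither SERTAD2 nor SERTAD3 passed in any group, and their C12 estimates lay between -0.04 and 0.01.

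**Figure D2:**
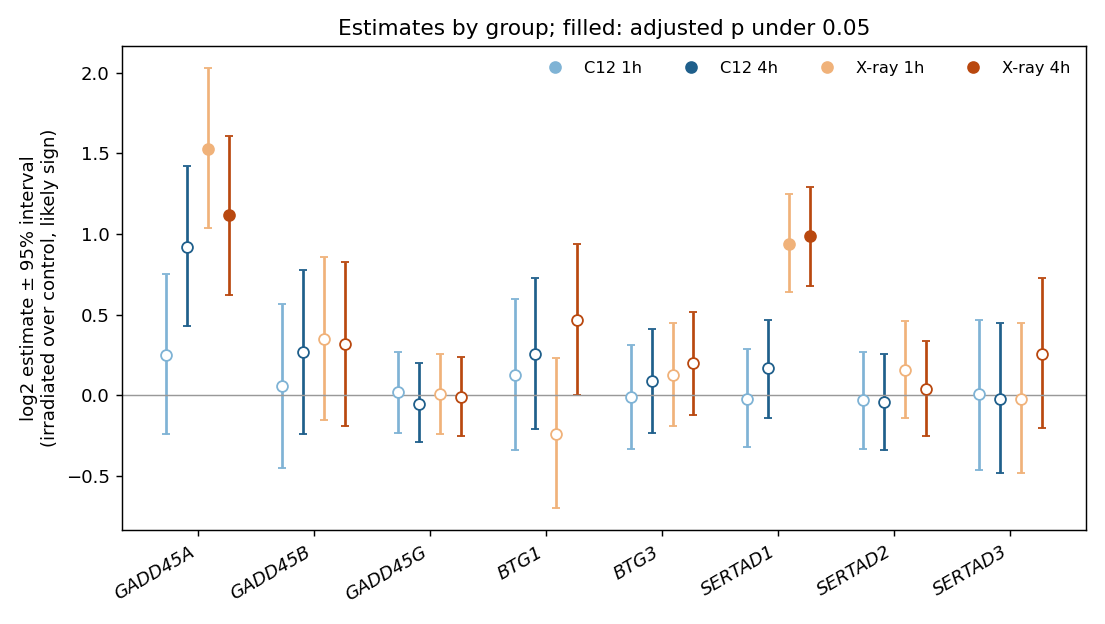
Log2 estimates (y axis, irradiated over control, likely sign) with 95% intervals for the 8 genes (x axis) in each group, from the limma model over 16 arrays. Filled points passed at an adjusted p under 0.05, which were GADD45A and SERTAD1 after X-rays at both times.

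GADD45B, a stress-inducible activator of MAP3K4 signalling, did not pass in any group. It stood at 0.81, 0.36, 0.56 and -0.31 on replicates 1 to 4 at X-ray 1h and at 0.76, 0.74, -0.31 and 0.08 at X-ray 4h. In both groups 3 of 4 arrays were above 0. The estimates were 0.35 ± 0.24 and 0.32 ± 0.24 (limma adjusted p = 1 and 0.92), with 95% intervals from -0.15 to 0.86 and from -0.19 to 0.83. Both features of GADD45B had positive estimates there, 0.41 and 0.30 at 1h and 0.35 and 0.29 at 4h. At C12 4h the estimate was 0.27 ± 0.24, with a mean of -0.48 in the Cy3 arrays and 1.01 in the Cy5 arrays.

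GADD45G, the third paralog, stayed within 0.05 of 0 in its estimates for all 4 groups. On the X-ray arrays it ranged from -0.15 to 0.23, with an SE of 0.12. The 95% interval was -0.24 to 0.26 at X-ray 1h and -0.25 to 0.24 at X-ray 4h, which leaves out a change of the size of GADD45A. Its 2 features pointed in opposite directions at X-ray 1h, with -0.25 ± 0.17 and 0.27 ± 0.13, so the gene mean there averages features that disagree.

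BTG1, an antiproliferative partner of the CCR4-NOT deadenylase, had estimates of opposite sign at the X-ray times, and neither passed. At 1h it stood at 0.59, -0.35, -0.61 and -0.57, and 3 of 4 arrays were negative. At 4h it stood at 0.23, 0.65, 0.64 and 0.36, all positive. The estimates were -0.24 ± 0.22 and 0.47 ± 0.22 (limma adjusted p = 1 and 0.738), and without X-ray 1h replicate 4 the first was 0.02. The 4h minus 1h difference was 0.71 ± 0.31 (95% interval 0.05 to 1.37, limma adjusted p = 1), at rank 38 of 18334. BTG3, which belongs to the same antiproliferative family, had estimates between -0.01 and 0.20 in the 4 groups, each with an SE of 0.15. At X-ray 4h its arrays stood at -0.07, 0.40, -0.12 and 0.58, on both sides of 0, and the 95% interval was -0.12 to 0.52.

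Across the 8 genes the median estimate was 0.01 at C12 1h, 0.13 at C12 4h, 0.15 at X-ray 1h and 0.29 at X-ray 4h, against 0.00 over all genes in each group. Positive estimates were found for 5, 5, 6 and 7 of 8, against 51.4%, 53.5%, 50.8% and 50.3% of all genes. The 8 include GADD45A and SERTAD1, which had helped to choose the sign rule. These medians and counts are thus not independent of that choice, and the distance from all genes is not a finding.

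The direct comparison of the radiation qualities asked whether the response of these genes differed between the exposures used. All deposited arrays had an SD of 0.4142 to 0.4143, while the median size of the dye coefficient was 0.33 for C12 and 0.10 for X-rays. Whether a shared SD per array alters the sizes compared here was not tested. For SERTAD1, C12 minus X-ray was -0.96 ± 0.20 at 1h (95% interval -1.39 to -0.53) and -0.82 ± 0.20 at 4h (-1.25 to -0.39). Neither passed over all genes (limma adjusted p = 0.565 and 0.872), and at 1h it did with 1 dye coefficient per quality (-0.96 ± 0.15, limma adjusted p = 0.0188). That SE pools both qualities, while residual SDs over genes in that fit were 0.127 on C12 and 0.295 on X-ray arrays. Whether this unequal spread affects the call was not tested. GADD45A differed by -1.28 ± 0.33 at 1h (95% interval -1.98 to -0.58, limma adjusted p = 1) and by -0.20 ± 0.33 at 4h (-0.90 to 0.50). BTG1 was at 0.37 ± 0.31 and -0.21 ± 0.31, and the other 5 genes lay between -0.30 and 0.02. In total 0 of 8 passed by limma at 1h and at 4h, as did 0% of all genes. At an unadjusted p under 0.05 the counts were 2 and 1 of 8, against 0.796% and 1.79% of all genes. Those genes were GADD45A and SERTAD1 at 1h and SERTAD1 at 4h, which had helped to choose the sign rule.

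**Figure D3:**
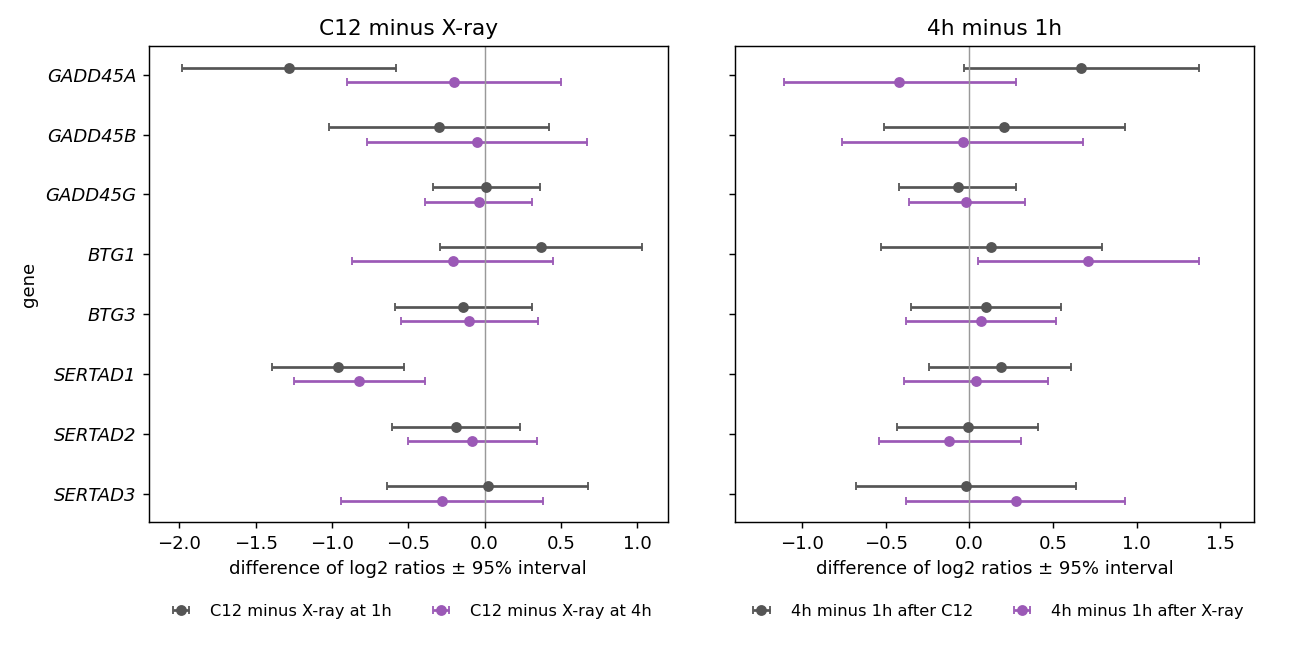
Differences of log2 ratios (x axis) with 95% intervals for each gene (y axis): C12 minus X-ray at 1h and 4h on the left, 4h minus 1h after C12 and after X-rays on the right. For C12 minus X-ray the intervals of GADD45A at 1h (-1.28) and of SERTAD1 at both times (-0.96 and -0.82) lie below 0. That of BTG1 lies above 0 for 4h minus 1h after X-rays (0.71).

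Between 1h and 4h, 0 of 8 genes passed by limma after either quality, as did 0% of all genes. At an unadjusted p under 0.05 the counts were 0 of 8 after C12 and 1 of 8 after X-rays, against 0.131% and 3.52% of all genes. The single gene was BTG1. For GADD45A, 4h minus 1h was 0.67 ± 0.33 after C12 (95% interval -0.03 to 1.37), at rank 6 of 18334, and -0.42 ± 0.33 after X-rays.

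Ratios were compared between genes over the 16 arrays after subtraction of the shared dye coefficient. For GADD45A this was 0.46, against 0.76 for C12 and 0.16 for X-rays when fitted per quality, so part of the dye split remained. Most like GADD45A was PLK3, a stress-responsive polo-like kinase (Pearson r = 0.91, Spearman rho = 0.871). Next were PPM1D, the phosphatase that dampens p53 signalling (0.866 and 0.874), and C2CD2 (0.84 and 0.838). PLK3 had estimates of 1.59, 1.29 and 0.78 at X-ray 1h, X-ray 4h and C12 4h, while C2CD2 stood at 0.18, 0.10 and -0.03 and did not pass. Most like SERTAD1 were SESN2, a sestrin that restrains mTORC1 (0.95 and 0.962), TNFSF9, the ligand of the co-stimulatory receptor 4-1BB (0.933 and 0.938), and PHLDA3, an inhibitor of AKT (0.915 and 0.894). SESN2 had estimates of 0.85, 0.86 and 0.25 in the same groups. These genes were picked for the highest r among all others, the arrays share their dye and sign pattern, and no test was made.

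Among binding partners and pathway genes of the GADD45 proteins, 13 of 15 were measured. CDKN1A, the cyclin-dependent kinase inhibitor, rose at C12 4h (1.12 ± 0.14), X-ray 1h (1.02 ± 0.14) and X-ray 4h (1.45 ± 0.14), with limma adjusted p of 0.00769, 0.00526 and 8.19e-05. CDKN1A is also among the p53 targets listed below, which in part set the sign. Its direction is thus not taken as a finding, and its p-values may come after a selection. CCNB1, the cyclin of the CDK1 kinase that GADD45A binds, fell at X-ray 4h (-0.83 ± 0.14, adjusted p = 0.00879), as did the mitotic kinase gene AURKA (-0.74 ± 0.16, adjusted p = 0.0424). At X-ray 4h 1 of 13 thus rose, 2 fell and 10 did not pass, with a median of 0.02. Over all genes 0.567% passed there in either direction.

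No gene passed in any comparison among the other lists of relatives and partners. The BTG4, TOB1 and TOB2 relatives of the BTG genes reached at most 0.38 ± 0.22 (TOB1 at X-ray 4h), and the SERTAD relatives SERTAD4 and CDCA4 at most -0.11 ± 0.11 in size (SERTAD4 at X-ray 4h). Of 12 measured BTG partners, which are subunits of CCR4-NOT and related mRNA decay factors, 0 passed, and the estimate farthest from 0 was -0.33 ± 0.25 for CNOT8 (4h minus 1h after X-rays). Of 12 SERTAD partners 0 passed, and the farthest was -0.32 ± 0.30 for CDK6 in the same comparison. Of 15 measured upstream regulators 0 passed, and the farthest was EGR1, an immediate early factor, at 0.59 ± 0.51 for 4h minus 1h after C12.

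A list of 23 measured p53 targets other than these genes, in part the list that set the sign, had 6 rises at X-ray 1h, 17 at X-ray 4h, 2 at C12 4h and 0 at C12 1h, with medians of 0.40, 0.86, 0.25 and 0.01. Over all genes 0.0491%, 0.567%, 0.0109% and 0% passed in these groups, and each median was 0. The counts and medians of the list are not independent of the sign choice and are no finding. The 17 were CDKN1A, GDF15, PLK2, PLK3, PPM1D, SESN1, SESN2, BBC3, FAS, TNFRSF10B, TP53INP1, DDB2, XPC, POLH, PHLDA3, TRIAP1 and TP53I3, between 0.65 and 1.74, and the 2 at C12 4h were CDKN1A and BBC3.

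Of the whole series, residual SDs over genes lay between 0.2 and 0.221 on C12 arrays and between 0.225 and 0.527 on X-ray arrays, highest on X-ray 4h replicate 2. Without that array GADD45A passed at X-ray 4h over all other arrays (0.95) but not on the X-ray arrays alone (1.05, limma adjusted p = 0.121), a fit chosen after seeing the data, and the X-ray 4h count over all genes moved from 104 to 1322. None of the 6 epithelial markers, the 12 fibroblast, endothelial and leukocyte markers or the 13 housekeeping genes passed in any of the 8 comparisons.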

How the data were processed

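RNA of irradiated and control A549 plates was measured on 16 two-colour Agilent arrays, 4 per group. The authors deposited log2 dye ratios, made with limma per the submitters' processing notes, with no version, log base or direction stated; base 2 is limma's usual output. Deposited values ran from -3.38 to 2.93 with an SD of 0.4142 to 0.4143 per array and 0 missing, so no background, intensity or saturation filter could be applied, and the number of arrays limits the precision.

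Of 45220 features, 31332 had 1 gene symbol in the platform annotation, 93 had several and 13795 were unnamed. Features of a symbol were averaged, giving 18334 genes. Replicates 1 and 2 of each group were multiplied by -1. The model (limma 3.58.1 in R 4.3.3) had 4 group means and 1 dye coefficient, with 11 residual degrees of freedom, and p-values were adjusted by Benjamini-Hochberg over all genes. On simulated data for the X-ray 1h comparison over 18334 genes, it recovered 91 of 100 genes changed by 1 on the log2 scale. It recovered 100 of 100 changed by 2, with 10 false calls in all. The simulated noise was normal and independent, with 1 SD per gene on all arrays and 1 shared dye coefficient. In the data, residual SDs ran from 0.2 to 0.527 across arrays and dye coefficients differed by radiation quality, so these rates may not hold.

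Members and lists were chosen with earlier results of these data known. Every member is named, and the other genes named are those that passed or lay farthest from 0 in a list, and the 3 with the highest Pearson correlation to GADD45A and SERTAD1 over 16 arrays. Same-numbered C12 1h and C12 4h arrays had residual correlations of 0.553 to 0.66, but of -0.312 to -0.136 with 1 dye coefficient per quality, so the numbers were not taken as pairs. Alternatives changed the dye term, the arrays fitted, the weights, the normalization, the feature summary, the sign rule and the replicate block, and left out each array. Expression of BTG2 was not analysed here. Promoter sequences came from RefSeq (GRCh38.p14), with an entry for 8 of the 9 genes, BTG2 included and GADD45A not.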

Additional observations from a re-analysis of the deposited data

Results flagged for a closer look

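GADD45A on X-ray 1h replicate 1 stood at 2.64, against 1.06 to 1.30 on the other 3 arrays, a gap large enough relative to the range of the 4 values to pass Dixon's test at the 95% level. It was 1 of 32 gene and group combinations tested, and chance gives about 1 in 20. The C12 combinations among them split by dye, so that rate may not hold there. Without that array the estimate was 1.30 in place of 1.53, and it did not pass (limma adjusted p = 0.259).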

How the results depend on the processing

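With median centring, quantile normalization or the feature median, no call of the 8 genes changed. Each gene had 1 or 2 features, so its feature median equalled the mean and could not move its estimate. The deposited arrays already shared an SD of 0.4142 to 0.4143, and quantile normalization was run after the sign turn. Why it changed no call was not tested. With all signs inverted GADD45A was at -1.53 and -1.12 and SERTAD1 at -0.94 and -0.99 at X-ray 1h and 4h. With ratios as deposited they were at -0.43 and -0.07 at X-ray 1h. Turned by the labelled dye they were at -0.35 and -0.08 at X-ray 1h, and SERTAD1 at -0.18 at 4h. When each quality was turned by the other's dye code, SERTAD1 was at 0 at X-ray 1h, BTG3 at 0.33 and SERTAD2 at 0.28 at C12 1h, and C12 minus X-ray at 4h was 0.9 for BTG1 and 0.71 for SERTAD3; that code called 10157, 10077, 2441 and 1124 genes at C12 1h, C12 4h, X-ray 1h and X-ray 4h, 199 and 5635 for C12 minus X-ray at 1h and 4h, and 712 for 4h minus 1h after X-rays, with 4, 5, 0, 0 and 3 members called at C12 1h, C12 4h, X-ray 1h, X-ray 4h and C12 minus X-ray at 4h. As deposited or by the labelled dye, 0 genes and 0 members passed at C12 4h, X-ray 1h or X-ray 4h.

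Genes called at C12 4h (2) were 0 without the dye term, 26 on the group's arrays alone, 4 on 1 quality, 1 with the replicate block, 14 with array weights and 1 with the feature median; members called (0) were 1 on the group's arrays, on 1 quality and with weights. At X-ray 1h (9) they were 0 without the dye term, 16 with 1 dye coefficient per quality, 1 on the group's arrays and 34 with that coefficient and without X-ray 4h replicate 2; members (2) were 0 without the dye term, 0 on the group's arrays and 1 with weights. At X-ray 4h (104) they were 21 without the dye term, 221 with 1 dye coefficient per quality, 41 on 1 quality and 2 with weights; members (2) were 0 without the dye term, 1 with the replicate block (GADD45A, limma adjusted p = 0.058) and 0 with weights. Chosen after seeing the data, leaving out X-ray 4h replicate 2 gave 1982 with 1 dye coefficient per quality and 23 on the X-ray arrays, with 1 member (SERTAD1; GADD45A was lost). C12 minus X-ray at 1h (0) gave 6 with 1 dye coefficient per quality, 2 on the groups' arrays and 8 in the added fit, with 1 member in the first and last. For 4h minus 1h, C12 (0) gave 2, 2 and 3 on the groups' arrays, on 1 quality and with weights, and X-rays (0) gave 3 with 1 dye coefficient per quality and 1178 in the added fit.

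Leaving out each array in turn gave 0 to 2 genes at C12 4h, 3 to 10 at X-ray 1h, 15 (without X-ray 4h replicate 3) to 1322 (without replicate 2) at X-ray 4h, 0 to 1 for C12 minus X-ray at 1h and 0 to 563 for 4h minus 1h after X-rays. Members called were 0 to 2 at X-ray 1h and at X-ray 4h. The replicate block changed no other call of the 8 genes. The causes were not tested.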

Other observations

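BTG2 itself had no named feature, but BTG2-DT, the divergent transcript next to it, did. It lay outside the rule and was looked at after BTG2 proved to have no feature. Its estimates were -0.12, -0.03, -0.17 and 0.01 at C12 1h, C12 4h, X-ray 1h and X-ray 4h, each with an SE of 0.16, and none passed.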
